A study of Homo sapiens with 4 samples.

Results

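Mucins are large glycoproteins in which long stretches rich in serine, threonine and proline carry dense O-linked sugar chains. Gel-forming mucins (MUC2, MUC5AC, MUC5B) are secreted, link into polymers through their cysteine-rich ends and give mucus its viscosity, MUC5AC and MUC5B being the main ones of airway mucus. Membrane mucins (MUC1, MUC3A, MUC4, MUC12, MUC13, MUC16 and MUC20 here) stay anchored in the apical membrane, and several of them are markers of adenocarcinoma. The 10 mucin genes described here were taken from the 50868 genes counted in A549 cells, a human lung adenocarcinoma line, by their gene symbols. The list was chosen from the measured values of the same comparison, so the differences between the groups are given for these genes as a description. Calls by the study's criterion are given below, but they are not read as a test of these genes.

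RNA was sequenced from 2 libraries of control A549 cells and 2 libraries of A549 cells overexpressing USP12, a deubiquitinase. USP12 was delivered as a cDNA in a lentiviral vector and the control cells carried the empty vector. Both groups are therefore cultures of 1 cell line that carry a vector, and whether the cells of a group came from 1 clone is not stated. The deposited values are raw counts of uniquely mapped fragments. The totals were 14280081 to 16305356 counts per library, at which 3 counts, taken as the floor of detection in a library, correspond to 0.166 to 0.227 CPM (read counts per library brought to one scale by TMM factors). Floors and intervals cover counting error only. Nothing says that the 2 libraries of a group came from separate cultures, so any p-value measures the spread between these libraries, which may be technical. The control libraries differed more from each other than the USP12 libraries did. The log2 ratio of CPM between replicates had an SD of 1.32 over the 15222 genes tested in the control pair and 0.618 in the USP12 pair. The heading of the count column of control replicate 1 also starts with another number than those of the other 3 libraries, and what it marks is not stated. For USP12 itself the control cells gave 15.2 and 34.4 CPM and the overexpressing cells 1745 and 2235 CPM (log2 fold change 6.32, standard error 0.57), so each library fitted its label. These counts do not separate the transgene from the endogenous gene.

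Promoters of 4 mucins that were lower in USP12 cells are shown, because they differ in the elements near their start sites. RefSeq windows for GRCh38.p14, from 250 bases before to 50 bases after an annotated start, were found for 7 of the 10 genes (9 windows), and not for MUC5AC, MUC5B and MUC20. The windows were searched on both strands for 4 short motifs. These were the letters TATAAA of a TATA box, the letters GGGCGG of a GC box, to which Sp1 binds, the letters TGACGT that form the core of the cyclic AMP response element (CRE), to which CREB-family factors bind, and the letters TGTTTA of a forkhead core. The full palindrome TGACGTCA, which contains the CRE core on each strand, was counted as well. These letters were picked after the windows had been read. Of all 35116 RefSeq windows of this length, 11.5% held TATAAA, 45.0% GGGCGG, 7.98% TGACGT, 1.85% TGACGTCA and 12.3% TGTTTA. Each sequence runs 5′ to 3′ along the gene, and capitals mark the matches, a match on the other strand appearing as its reverse complement. MUC13 is at chr3:124934702-124935001 (minus strand), MUC3A at chr7:100949284-100949583 (plus strand), MUC1 at chr1:155192866-155193165 (minus strand) and MUC2 at chr11:1074624-1074923 (plus strand). The gene coordinates below come from the GENCODE annotation, whose starts differ from those of RefSeq in places. The MUC13 window lies inside the GENCODE gene, and 1 MUC16 window (chr19:9065702-9066001) lies outside it.
MUC13: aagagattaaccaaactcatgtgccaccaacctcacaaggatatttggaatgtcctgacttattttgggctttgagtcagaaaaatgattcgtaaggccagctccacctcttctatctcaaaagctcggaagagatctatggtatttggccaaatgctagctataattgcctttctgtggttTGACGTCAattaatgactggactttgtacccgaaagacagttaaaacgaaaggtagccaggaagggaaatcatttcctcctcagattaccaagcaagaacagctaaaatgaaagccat
MUC3A: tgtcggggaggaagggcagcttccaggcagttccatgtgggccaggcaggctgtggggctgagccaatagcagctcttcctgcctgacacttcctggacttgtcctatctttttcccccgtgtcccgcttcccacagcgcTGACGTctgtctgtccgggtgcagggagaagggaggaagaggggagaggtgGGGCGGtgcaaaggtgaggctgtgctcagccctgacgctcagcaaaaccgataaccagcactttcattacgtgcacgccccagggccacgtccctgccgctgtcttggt
MUC1: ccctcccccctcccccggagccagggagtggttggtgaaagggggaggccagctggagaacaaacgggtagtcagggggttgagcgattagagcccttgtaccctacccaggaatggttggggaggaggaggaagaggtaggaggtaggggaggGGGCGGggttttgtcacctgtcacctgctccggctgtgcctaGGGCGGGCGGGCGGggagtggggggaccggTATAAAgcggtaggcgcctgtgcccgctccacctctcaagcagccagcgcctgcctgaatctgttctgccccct
MUC2: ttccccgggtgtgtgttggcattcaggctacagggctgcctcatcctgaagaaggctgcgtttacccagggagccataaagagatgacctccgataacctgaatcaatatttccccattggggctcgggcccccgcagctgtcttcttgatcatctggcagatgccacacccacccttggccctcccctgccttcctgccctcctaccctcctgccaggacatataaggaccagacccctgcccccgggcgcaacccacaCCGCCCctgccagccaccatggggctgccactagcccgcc
The MUC13 window held the full CRE palindrome, which begins 68 bases before the start, and neither a TATA box nor a GC box. The MUC3A window held 1 CRE core and 1 GC box. The MUC1 window had 4 GC boxes, 3 of them overlapping in a row, and a TATA box that begins 24 bases before the start. The MUC2 window had a single GC box, which begins 11 bases into the transcript on the other strand. Of the windows not printed, the other MUC1 window, shifted by a few bases, held the same TATA and GC boxes, MUC12 held TATAAA, MUC4 and 1 of the 2 MUC16 windows held GGGCGG, and the other MUC16 window held none of the motifs. TGTTTA was in none of the 9 windows. A match is a description of letters and not a site shown to be bound.

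The gel-forming mucins MUC5AC and MUC5B had the highest counts of the 10 genes in each library, and all 3 gel-forming mucins were lower in both USP12 libraries than in both control libraries. MUC5AC (ENSG00000215182, chr11:1157953-1201138, plus strand), the main mucin of airway goblet cells, had 3755 and 6984 CPM in control cells, against 270 and 319 CPM in USP12 cells. By raw counts it was the gene of rank 17 and rank 7 in the control libraries and of rank 440 and 354 in the USP12 libraries. MUC5B (ENSG00000117983, chr11:1223066-1262172, plus strand), the other polymeric mucin of the airways, had 2265 and 5292 CPM in control cells and 222 and 287 CPM in USP12 cells. For both genes control replicate 2 was the highest library, and the USP12 libraries lay close together and far under either control. The log2 fold changes were -4.19 for MUC5AC (standard error 0.43) and -3.89 for MUC5B (standard error 0.51). MUC2 (ENSG00000198788, chr11:1074875-1110511, plus strand), the gel-forming mucin of the intestine, was expressed at far lower levels, with 36.2 and 11.9 CPM in control cells. It had 0.432 and 0.900 CPM in the USP12 libraries, which were 6 and 13 counts. Its log2 fold change was -5.15 (standard error 0.83), and it passed the filter on low counts through the control libraries alone.

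**Figure D1:**
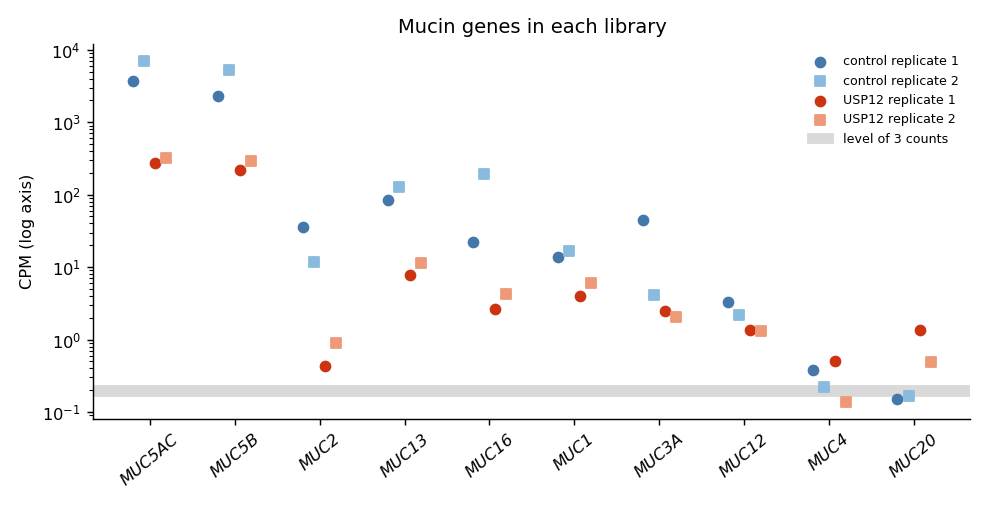
Level of the 10 mucin genes in each of the 4 libraries, in CPM on a log axis, with 1 point per library and a grey band at the level of 3 counts (0.166 to 0.227 CPM). MUC5AC and MUC5B stand at 2265 CPM or more in both control libraries and at 222 to 319 CPM in both USP12 libraries, while MUC4 and MUC20 lie near the band.

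MUC5AC alone took 0.347% of the counts of control replicate 1 (95% Wilson interval 0.344 to 0.350) and 0.773% of control replicate 2 (0.769 to 0.777). It took 0.0260% of USP12 replicate 1 (0.0252 to 0.0268) and 0.0322% of USP12 replicate 2 (0.0313 to 0.0332). The 10 mucins together took 0.575% and 1.40% of the counts in control cells and 0.0494% and 0.0640% in USP12 cells. Since these are bulk samples, fewer cells that express a mucin and less mucin RNA per cell cannot be told apart.

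Of the membrane mucins, MUC13, MUC16, MUC1, MUC3A and MUC12 were lower in both USP12 libraries than in both controls, from levels far under those of MUC5AC and MUC5B. The control libraries lay far apart for MUC16 and MUC3A and close together for MUC1, MUC12 and MUC13. MUC13 (ENSG00000173702, chr3:124905442-124953819, minus strand), a short epithelial mucin with EGF-like domains, had 84.3 and 126 CPM in control cells and 7.70 and 11.6 CPM in USP12 cells. Its log2 fold change was -3.45 (standard error 0.47). MUC16 (ENSG00000181143, chr19:8848844-9010390, minus strand), the carrier of the tumour antigen CA125, had 22.5 CPM in control replicate 1 and 191 CPM in control replicate 2, against 2.66 and 4.29 CPM in USP12 cells. The groups did not overlap, but the size of the difference was set largely by control replicate 2. Its log2 fold change was -4.93 (standard error 1.08) with all libraries and -2.66 without control replicate 2. MUC1 (ENSG00000185499, chr1:155185824-155192916, minus strand), the widely expressed epithelial mucin whose cytoplasmic tail binds signalling proteins, had 13.8 and 16.7 CPM in control cells and 3.96 and 5.96 CPM in USP12 cells. Its log2 fold change of -1.62 (standard error 0.50) was smaller in size than those of MUC13 and MUC16, and MUC1 no longer met the criterion of the study (given below with the counts of calls) when either USP12 library was left out (-1.35 and -1.95).

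MUC3A (ENSG00000169894, chr7:100949534-100968347, plus strand), a membrane mucin of the intestinal brush border, had 44.6 CPM in control replicate 1, 4.10 CPM in control replicate 2 and 2.45 and 2.08 CPM in the USP12 libraries. Here control replicate 1 was the high library, and control replicate 2 lay only 1.68 times over the higher USP12 library. The log2 fold change was -3.42 (standard error 1.10) with all libraries and -0.85 without control replicate 1. MUC12 (ENSG00000205277, chr7:100969565-101018939, plus strand), its neighbour, had 3.25 and 2.22 CPM in control cells and 1.37 and 1.32 CPM in USP12 cells. Its counts of 43, 40, 19 and 19 were low, and its log2 fold change was -1.02 (standard error 0.67). MUC4 (ENSG00000145113, chr3:195746765-195811973, minus strand), a membrane mucin that binds the receptor ERBB2, had 5, 4, 7 and 2 counts in control replicates 1 and 2 and USP12 replicates 1 and 2. MUC20 (ENSG00000176945, chr3:195720884-195741123, plus strand), a small membrane mucin, had 2, 3, 19 and 7 counts in the same order, with the USP12 libraries above the controls. MUC4 and MUC20 were removed by the low-count filter and so have no fitted value, and a difference in MUC4 was not detectable at this depth.

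The study's criterion for a lower gene was a p of at most 0.05 with a log2 fold change of at most -1, and the p was taken here as unadjusted, which no source states. By edgeR's quasi-likelihood test, 7 of the 8 mucins that passed the filter met it (MUC1, MUC2, MUC3A, MUC5AC, MUC5B, MUC13 and MUC16), and MUC12 did not. Without control replicate 1 the log2 fold change of MUC3A was -0.85, short of the criterion. Of all genes tested, 671 (4.41%) met this criterion and 445 (2.92%) met its mirror for higher genes, which no mucin did. Both USP12 libraries lay below both controls for 8 of the 8 tested mucins, which was so for 2582 genes in all (17%), and above both for 2973 genes (19.5%). Because the mucins were chosen with this contrast known, nothing is read from these shares. After Benjamini-Hochberg adjustment, 0 genes (0%) had an adjusted p under 0.05 by the quasi-likelihood test, and 1155 had an unadjusted p under 0.05. Under the same adjustment 262 genes were lower and 167 higher by edgeR's exact test, and 273 and 133 by the Wald test of DESeq2.

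**Figure D2:**
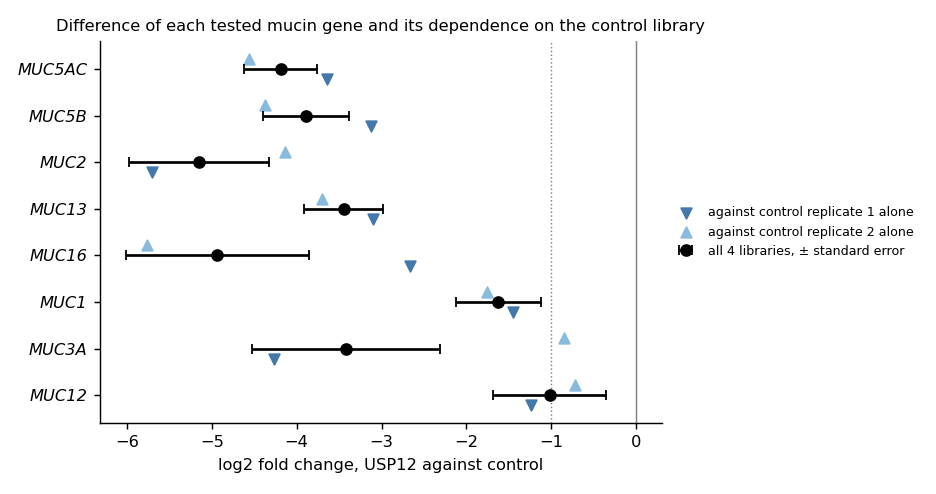
Log2 fold change of the 8 tested mucins, USP12 against control, with all 4 libraries (black, bars are standard errors) and against each control library alone (triangles), with a dotted line at -1. MUC3A moves from -3.42 to -0.85 when control replicate 1 is left out, and MUC16 from -4.93 to -2.66 when control replicate 2 is left out, while MUC5AC stays between -4.57 and -3.64.

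As a ratio of mean CPM, control over USP12, the differences ran from 2.04 for MUC12 and 3.08 for MUC1 over 10.8 for MUC3A, 10.9 for MUC13, 14.8 for MUC5B and 18.2 for MUC5AC to 30.7 for MUC16 and 36.1 for MUC2. The more cautious ratio of the lowest control library to the highest USP12 library was highest for MUC2 (13.2) and MUC5AC (11.8), followed by MUC5B (7.88), MUC13 (7.29), MUC16 (5.23), MUC1 (2.32), MUC3A (1.68) and MUC12 (1.62). The control libraries did not order the mucins alike. MUC16 was higher in control replicate 2 by a log2 ratio of 3.08 in size (control replicate 1 over 2, -3.08), and MUC3A was higher in control replicate 1 (3.40). MUC2 was also higher in control replicate 1 (1.59), whereas MUC5AC (-0.90), MUC5B (-1.22) and MUC13 (-0.58) were higher in control replicate 2. The order of the middle mucins by fold thus rests on which control library is used.

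Per transcript length (TPM, from the counts and the union of annotated exons), MUC5AC and MUC5B were still the leading mucins in every library. MUC5AC had 438 and 1104 TPM in control cells and 28.6 and 37.6 TPM in USP12 cells, and MUC5B had 248 and 785 TPM and then 22.1 and 31.8 TPM. MUC13, whose transcript is short, followed with 49.0 and 99.3 TPM in control cells and 4.07 and 6.80 TPM in USP12 cells. MUC1 came next in USP12 cells, at 3.05 and 5.10 TPM, and also in control cells, at 11.7 and 19.2 TPM. The longest gene, MUC16, was under MUC1 on this scale, with 1.04 and 11.9 TPM in control cells and 0.111 and 0.200 TPM in USP12 cells. MUC3A had 7.96 and 0.992 TPM in control cells, and MUC2 had 5.81 and 2.59 TPM, so that the order of MUC2, MUC3A and MUC16 was not the same in both control libraries. MUC12 stayed under 0.4 TPM in every library and MUC4 under 0.05 TPM.

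**Figure D3:**
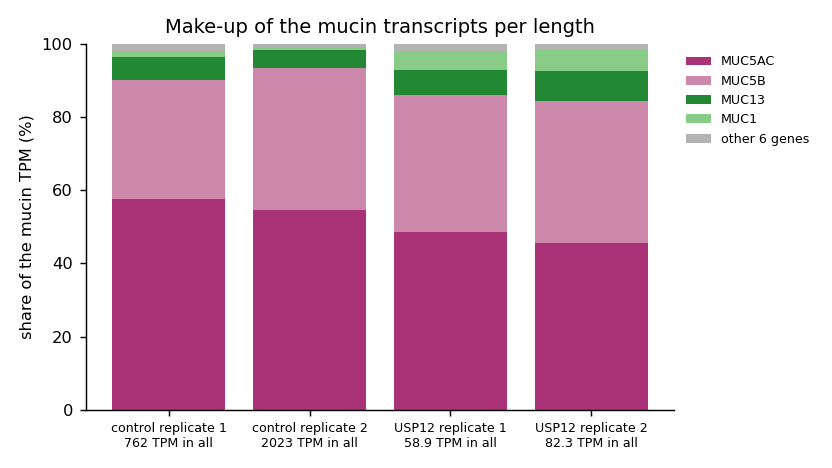
Make-up of the mucin TPM in each library, in percent, with the sum of the 10 mucins under each bar (762 and 2023 TPM in control cells, 58.9 and 82.3 TPM in USP12 cells). MUC5AC and MUC5B fill most of every bar, and the membrane mucins MUC13 and MUC1 take a larger share in the USP12 libraries.

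The summed mucin level was 762 and 2023 TPM in control cells and 58.9 and 82.3 TPM in USP12 cells. The gel-forming mucins made up 90.8% and 93.5% of it in control cells and 86.1% and 84.5% in USP12 cells. MUC5AC was 57.5% and 54.6% of the sum in control cells and 48.5% and 45.7% in USP12 cells, and MUC5B was 32.5% and 38.8% and then 37.5% and 38.6%. The count ratio of MUC5AC to MUC5B was 1.66 and 1.32 in control cells and 1.21 and 1.11 in USP12 cells. The make-up of the mucins thus differed far less between the groups than their sum did, although the shares of MUC5AC did not overlap. These ratios are within a library and do not depend on its scaling.

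The gel-forming mucins lie side by side on chromosome 11 with MUC6, the gastric mucin, which had 0, 6, 2 and 1 counts. MUC2 and MUC5AC are 47441 bases apart, and MUC5AC and MUC5B 21927. The 3 nearest protein-coding genes on each side of this cluster had log2 fold changes of -1.06 (TSPAN4), -0.42 (CHID1), -0.33 (AP2A2), -0.31 (TOLLIP), -0.19 (BRSK2) and -0.44 (MOB2). None of these 6 met the criterion, while the 3 gel-forming mucins between them stood at -5.15, -4.19 and -3.89. AP2A2 ends 578 bases from MUC6, and had 205 and 110 CPM in control cells and 122 and 128 CPM in USP12 cells, so its groups overlapped. On chromosome 7, beside MUC3A, MUC12 and MUC17 (3, 6, 0 and 3 counts), the tested flanking genes reported here lay between -0.70 (AP1S1) and 0.28 (SRRT). On chromosome 3, next to the barely detected MUC20 and MUC4, APOD, which encodes a lipocalin, had 157 and 164 counts in control cells and 26 and 9 in USP12 cells. At -3.06 (standard error 0.71) APOD was the single gene to meet the criterion among 15 tested of 17 flanking genes reported. Of all genes tested, 4.41% met it as lower and 2.92% met its mirror as higher. With so few flanking genes, nothing is read from these counts.

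**Figure D4:**
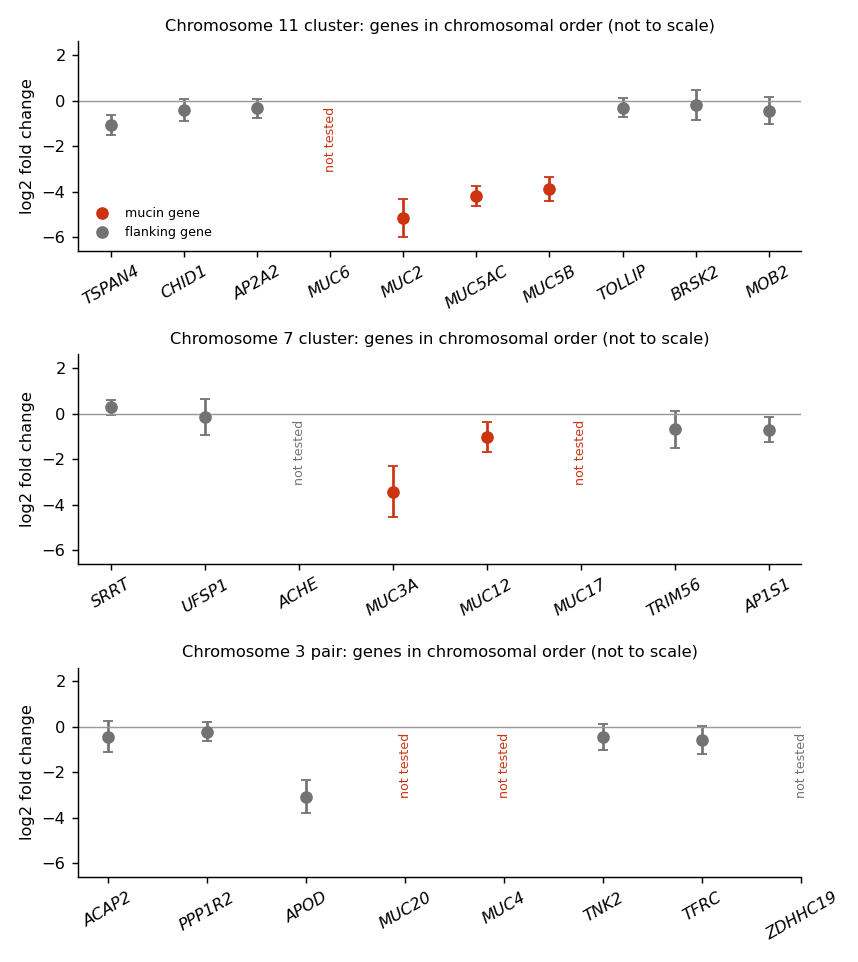
Log2 fold change with its standard error for the mucin genes (red) and the flanking protein-coding genes reported (grey), in chromosomal order and not to scale, at the clusters of chromosomes 11 and 7 and the pair of chromosome 3. On chromosome 11 the 3 tested mucins lie between -5.15 and -3.89 and the 6 flanking genes between -1.06 and -0.19.

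Mucin transcripts are unusual templates for read counting, since their sugar-bearing stretches are coded by tandem repeats and only uniquely mapped fragments were counted. In the GENCODE annotation (GRCh38), the union of exons ran from 2401 bases in MUC1 to 44165 in MUC16, against a median of 5385 over 12925 tested protein-coding genes. A single exon of 10371 bases made up 59.44% of the longest MUC5AC transcript, and 1 of 14935 bases made up 89.23% of that of MUC12, against a median largest exon of 2147 bases. Of the 50-base words of the longest transcript, 61.46% occurred more than once in it for MUC12, 29.22% for MUC5B, 28.85% for MUC4, 21.45% for MUC5AC and 21.37% for MUC2. By this measure MUC3A (1.857%), MUC16 (1.069%), MUC1 and MUC13 (both 0) had few or none. Only exact copies within the annotated transcript, of 1811 bases for MUC1, are counted. Imperfect repeats, and repeats missing from the annotated transcript, are not seen. Repeated words were found in 8 of the 10 mucins and in 3.05% of the tested protein-coding genes. How many fragments of the repeats went uncounted cannot be seen in the counts. The log2 fold changes were -1.62 for MUC1 and -3.45 for MUC13, in which no such words were counted. They were -1.02 for MUC12, -3.89 for MUC5B, -4.19 for MUC5AC and -5.15 for MUC2. The part of the repeats in these differences was not tested. Among genes that overlap the mucins, MUC12-AS1 on the opposite strand of MUC12 had 30, 8, 16 and 16 counts and MUC20-OT1 on the strand of MUC20 had 127, 157, 166 and 118. No source says whether fragments were assigned by strand, so MUC12 is uncertain, and MUC20 is uncertain because its partner lies on the same strand. MUC5B-AS1 had 0 counts in all 4 libraries.

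The other members of the mucin family were mostly silent. Of 14 further genes with mucin names or mucin-like domains, 12 were in the files and 3 were tested, and none met the criterion in either direction. These were OVGP1, an oviduct glycoprotein (0.85), CD164, a sialomucin of the membrane and endolysosomes (-0.49), and MCAM, an adhesion molecule (0.41). MUC15, MUC21, MUCL1 and EMCN had 0 counts in every library.

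The enzymes and partners that make and use mucins were counted by the same criterion, in lists that were drawn up with earlier results of these data known. The median log2 fold change of all 15222 genes tested was -0.06. In the list of mucus packaging and co-secreted products, 8 of 9 tested genes met the criterion as lower and none as higher, with a median of -6.47, where 4.41% of all tested genes were lower and 2.92% higher. AGR3 and TFF3 had 0 counts in both USP12 libraries, and the median was -2.73 with these genes at the bound given by 3 counts per library. AGR3, TFF3, TFF1 and BPIFB1 passed the filter on low counts through the control libraries alone. They could enter the tested genes only by being high in control cells, so nothing is read from the count of lower genes. AGR2, the disulfide isomerase needed for mucin folding, had 13039 and 22918 counts in control cells and 2901 and 2547 in USP12 cells (log2 fold change -2.55, standard error 0.35). FCGBP, a protein that binds to mucus gels, had 4761 and 3397 counts and then 283 and 277 (-3.79, standard error 0.48). TFF1, a trefoil peptide secreted with mucins, had 776 and 217 counts against 7 and 4. BPIFB1, an airway secretory protein, had 1461 and 435 counts against 5 and 5. CREB3L1, a membrane-bound transcription factor of the secretory pathway, had 3850 and 2115 counts against 21 and 31. BCAS1 (-1.71) met the criterion and ZG16B (-1.41) did not. Leaving out a library changes which genes pass the filter. Without control replicate 1 the same 8 genes met it, of 10 tested (8.01% of all genes), and without control replicate 2 all 10 tested did (13.3% of all genes). Without USP12 replicate 1 or 2, 6 of 11 met it (1.86% and 2.09% of all genes), BCAS1 and TFF3 being lost.

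Of 22 enzymes that start and extend O-linked chains, 20 were tested and 6 met the criterion as lower (4.41% of all genes), none as higher (2.92%), with a median of -0.22. The 6 are named after their values were seen. ST6GALNAC1, the sialyltransferase that makes the sialyl-Tn antigen, had 548 and 848 counts in control cells and 25 and 17 in USP12 cells (-4.89, standard error 0.53). B3GNT6, which makes the core 3 structure, was at -3.88, GALNT5, an initiating transferase, at -2.40, and B3GNT3, which extends core 1 chains, at -2.25. B3GNT6, at 3 and 6 counts in USP12 cells, passed the filter on low counts through the control libraries alone. ST6GALNAC2 was at -2.02 and GCNT3, which forms branched cores, at -1.63. The broadly expressed initiating enzymes GALNT1 (-0.11) and GALNT2 (-0.16), and C1GALT1 (-0.21) with its chaperone C1GALT1C1 (0.33), did not meet it. Without USP12 replicate 1 or 2, 2 of 21 tested enzymes met the criterion (1.86% and 2.09% of all genes), ST6GALNAC1 and B3GNT6. Without control replicate 1, 6 were lower (8.01% of all genes), with GALNT4 and ST3GAL1 in place of GCNT3 and ST6GALNAC2, and GALNT18 was higher (7.94%).

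Of 15 transcription factors linked to mucin genes, 14 were tested, 2 met the criterion as lower (4.41% of all genes) and none as higher (2.92%), with a median of -0.53. SPDEF, the ETS factor of goblet cells, had 2960 and 2208 counts in control cells and 535 and 454 in USP12 cells (-2.31, standard error 0.45). FOXA3, a forkhead factor of the same cells, had 941 and 758 counts and then 138 and 84 (-2.84, standard error 0.53). Its relatives FOXA1 (-0.63) and FOXA2 (0.32), CREB1 (0.17), which is a CRE-binding factor, and the GC-box factor SP1 (0.35) did not meet it. CREB3L1, counted above with the packaging genes, was at -6.79 (standard error 0.68) and met the criterion. SPDEF and FOXA3 met it with any 1 library left out, and which other factors met it changed with the library. Those fits leave 1 library in a group, so nothing is read from their calls. Of 10 partners and sheddases of membrane mucins, 10 were tested, 2 met the criterion as lower and none as higher, against the same shares of all genes, with a median of -0.35. MSLN, mesothelin, which binds MUC16, had 164 and 142 counts in control cells and 5 and 9 in USP12 cells (-4.34, standard error 0.68). MSLN passed the filter on low counts through the control libraries alone. ERBB3 was at -1.13, while ERBB2, the partner of MUC4, was at -0.71, and EGFR, a partner of MUC1, at 0.45. MSLN met the criterion with any 1 library left out, and ERBB3 lost it without control replicate 1 or either USP12 library, and with the replicate number as a block. Which other partners met the criterion also changed with the library left out, and nothing is read from those calls.

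**Figure D5:**
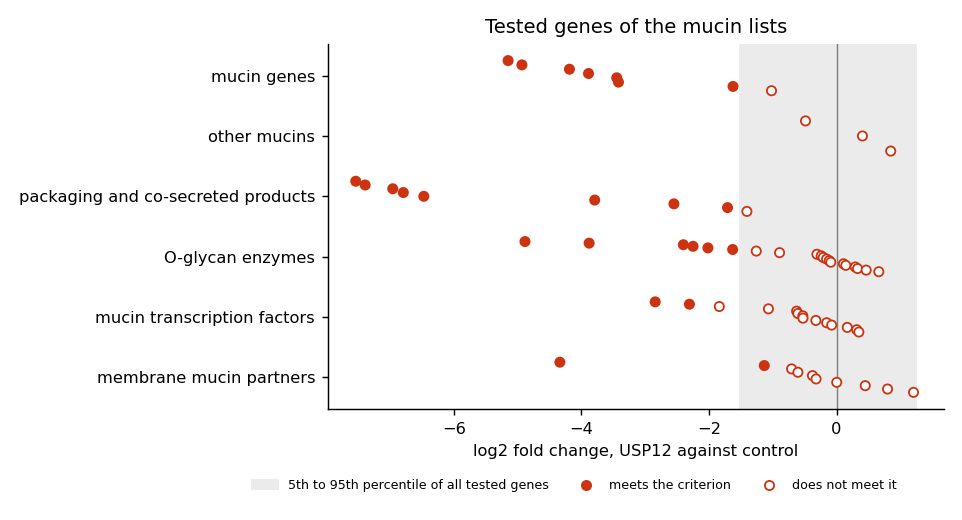
Log2 fold change, USP12 against control, of every tested gene in the mucin list and in 5 lists of related genes, 1 point per gene, filled where the study's criterion was met. The grey band spans the 5th to the 95th percentile of all tested genes (-1.51 to 1.25), and 8 of 9 packaging genes, 6 of 20 enzymes, 2 of 14 transcription factors and 2 of 10 partners are filled, all on the lower side.

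The 5 genes most like MUC5AC over the 4 libraries, by the root mean square difference of centred log2 CPM among 9515 genes with a mean of at least 10 CPM, were ANKS4B (0.185), MUC5B (0.215), TXNIP (0.268), PARM1 (0.365) and HLA-B (0.369). ANKS4B, a scaffold protein of the brush border, had 12.9 and 27.5 CPM in control cells and 0.864 and 0.762 CPM in USP12 cells. PARM1, a mucin-like membrane protein, had 108 and 105 CPM and then 5.76 and 5.19 CPM. MUC13 came sixth (0.384), whereas MUC16 (place 31), MUC2 (52), MUC1 (119) and MUC3A (677) were farther away. With 4 libraries in 2 groups this order mostly ranks genes by the size of the difference and by the gap between the controls.

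The cells had the keratins of an epithelial line, KRT7 at 40698 to 43560 counts and KRT8 at 36312 to 80283, and the alveolar type 2 markers SFTPB, SFTPC and SFTPA1 at 0 or 1. In the same alveolar list, ABCA3 had 1058 to 1522 counts, NAPSA 7 to 26, LAMP3 4 to 101 and SFTPD 0 to 19. Markers of other cell types were near the floor in part and moved with the mucins in part. Of all genes tested, 4.41% met the criterion as lower and 2.92% as higher. With so few markers in a list, nothing is read from the counts of calls below. Of 6 epithelial markers tested, 1 met the criterion (KRT19, -2.14), and their summed level was 4541 to 5871 TPM in control and 3054 to 3148 TPM in USP12 cells. Of 4 endothelial markers, 2 were tested and both were lower by the criterion (PECAM1 and CDH5). Their list summed to 3.59 to 4.84 TPM in control and 0.134 to 0.376 TPM in USP12 cells. CDH5 had 136 and 96 counts in control and 2 and 5 in USP12 cells. PECAM1 had 68 and 56 counts and then 4 and 14, and the untested markers VWF and KDR had at most 3. Of 4 basal markers, 2 were tested and both were lower (TP63 and NGFR), the sums were 12.8 to 17.5 and 2.66 to 5.76 TPM, and KRT5 and KRT14 had at most 5 counts. The leukocyte list had 1 of 3 tested markers lower (LYZ), with sums of 64.0 to 76.7 and 46.8 to 55.5 TPM and PTPRC and CD3E at 0 or 1 counts. In the same list CD68 had 686 to 1044 counts and CD79A 12 to 17. The alveolar type 2 list had 1 of 3 lower (LAMP3), with sums of 31.9 to 32.9 and 18.8 to 21.5 TPM. The ciliated list had 1 of 4 lower (TPPP3) and 1 higher (FOXJ1), with sums of 496 to 640 and 410 to 420 TPM. The fibroblast list had 0 of 2 tested markers past the criterion, with sums of 1.05 to 4.38 and 4.20 to 4.58 TPM and DCN at 0. Its tested markers were COL1A1, with 172 and 47 counts in control and 262 and 211 in USP12 cells, and LUM, with 4 to 25 counts. None of 4 club cell markers was tested. SCGB1A1 had at most 1 count, BPIFA1 had 91 and 2 counts in control and 0 in both USP12 libraries, and the list summed to 0.283 to 13.0 TPM in control and 0 to 0.228 TPM in USP12 cells. CDH5, PECAM1, NGFR, LYZ and LAMP3 passed the filter on low counts through the control libraries alone, and FOXJ1 through the USP12 libraries alone. The part of these markers in the mucin differences was not tested.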

How the data were processed

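RNA of control and USP12-overexpressing A549 cells was measured in 2 libraries each. The authors prepared stranded mRNA libraries, trimmed reads and filtered ribosomal RNA with Seqtk, and, per the submitters' processing notes, used HISAT2 2.0.4, StringTie 1.3.0 and GRCh38. The deposited values are raw counts of uniquely mapped fragments per gene. The gene annotation used, and whether counting was by strand, are not given in the sources used here. The deposited files hold no columns of the authors' own comparisons.
The comparison was made with edgeR 4.0.16 under R 4.3.3 (filterByExpr with a minimum count of 10, TMM scaling, quasi-likelihood test without covariates, Benjamini-Hochberg adjustment) on 15222 of 50868 genes. The totals were 14280081 to 16305356 counts per library. The standard error was approximated by dividing a log2 fold change by the root of its F statistic. The calculation was tested on simulated data in which all genes and both groups were drawn with the same dispersion. The larger spread of the control pair was not simulated, so that test checks the code only. TPM used the union of exons in GENCODE, which gave a length for 99.16% of the tested genes. The prior count of log2 CPM was 2. Pandas and matplotlib were used for joins and plots, and scipy for the 95% Wilson intervals.
Groups and replicate numbers came from the sample labels. The mucins and all gene lists were chosen with earlier results of these data known, so no list was tested as a set. The genes named were the 10 mucins, USP12, the listed related genes, the 3 nearest protein-coding genes on each side of the mucin clusters (1 of which is not reported here), and the 5 genes nearest to MUC5AC. Single enzymes were named once their values had been seen. Alternatives tried were scaling by DESeq2 size factors, no filter, at least 10 counts in every library, the edgeR exact test, the DESeq2 1.42.0 Wald test, the replicate number as a block, the longest transcript as gene length, and leaving out each library, which was extended to the lists after the data had been seen.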

Additional observations from a re-analysis of the deposited data

How the results depend on the processing

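The 8 mucins tested with all libraries had negative log2 fold changes under every alternative that kept them. Of the 8, 7 met the study's criterion with DESeq2 size factors, without a filter on low counts, with the replicate number as a block, and by the edgeR exact and DESeq2 Wald tests. With at least 10 counts in every library, 6 of 7 met it, MUC2 being removed, and 521 genes in all were lower by it. Over all genes tested, 4.58% were lower by it with DESeq2 size factors and 4.71% with the replicate block. The share was 5.28% by the exact test and 5.43% by the Wald test. The criterion was lost by MUC3A without control replicate 1 (-0.85), and by MUC1 without USP12 replicate 1 (-1.35) and without USP12 replicate 2 (-1.95). Leaving out 1 library at a time, where the lone library is assumed to vary like the other group, gave -4.57 to -3.64 for MUC5AC, -4.37 to -3.12 for MUC5B, -5.75 to -4.14 for MUC2, -3.78 to -3.10 for MUC13, -5.77 to -2.66 for MUC16, -1.95 to -1.35 for MUC1, -4.27 to -0.85 for MUC3A and -1.24 to -0.72 for MUC12.
The counts over all genes moved more. Without a filter on low counts, 1173 lower and 688 higher genes met the criterion, against 671 and 445. The genes with an adjusted p under 0.05, 0 in either direction by the quasi-likelihood test, were 361 lower and 167 higher without the filter, 262 and 167 by the exact test, and 273 and 133 by the DESeq2 Wald test. With the replicate block they were 251 and 153, and in the lists of related genes ERBB3 alone lost the criterion. The block fit took the spread wholly from the trend over genes (prior degrees of freedom infinite, against 4.15 in the main fit). The replicate numbers share only a number (the correlation of same-numbered deviations was 0.152), and no source pairs the libraries. Leaving out 1 library gave 300 to 2134 lower and 159 to 2495 higher genes by the criterion, and 28 to 2612 and 12 to 2550 by adjusted p. The MUC5AC share of the mucin TPM ranged from 54.6 to 57.5% in control and from 45.7 to 48.5% in USP12 cells with 1 library left out. With the longest transcript as gene length its mean in USP12 cells was 44.8% in place of 47.1%. The causes of these shifts were not tested. Depth limits MUC4, MUC20 and MUC12, whose counts were low.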
